A study of Gallus gallus with 10 samples.

Results

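Lecithin-cholesterol acyltransferase (LCAT) and 6 genes that work with it in moving cholesterol from cells onto high-density lipoprotein (HDL) were examined in the abdominal fat of chickens. The other genes were APOA1, ABCA1, ABCG1, SCARB1, PLTP and CETP. Their members were all probe sets that the annotation of the chicken array gives to one of these symbols and to no other gene, which made 13 of the 38439 probe sets tested. LCAT, ABCA1 and SCARB1 had 1 probe set each, APOA1 and PLTP had 2 each, and ABCG1 and CETP had 3 each. LCAT had been chosen by its own signals in these birds, which were low throughout the fat line, so its difference between the lines is given as a description and was not tested.

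The birds were 10 male Arbor Acres broilers aged 49 days, 5 of a fat line and 5 of a lean line, with 1 array per bird. Both lines came from the same grandsire stock and had been bred apart for high or low abdominal fat and plasma very low density lipoprotein. All birds were raised on the same corn and soybean feed without restriction. Per the paper, they were then fasted before being weighed and slaughtered, so the fat came from fasted birds. The 5 birds of each line were chosen as extremes of abdominal fat percentage, so they do not stand for the whole of their line. Bulk abdominal fat was hybridized, in which fewer cells of a type and less RNA per cell cannot be told apart. Birds are named by line and by the number in the labels.

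HDL takes up cholesterol in steps. Apolipoprotein A-I (APOA1) is the main protein of the particle, and the membrane transporter ABCA1 loads it with cell cholesterol and phospholipid, while ABCG1 passes cholesterol to HDL that is already formed. LCAT, a plasma enzyme made in mammals mostly by the liver, esterifies this cholesterol, and the ester moves into the core of the particle. The phospholipid transfer protein (PLTP) and the cholesteryl ester transfer protein (CETP) then exchange lipids between HDL and other lipoproteins, and the scavenger receptor SCARB1 takes the ester up into cells. HDL is the main plasma lipoprotein of growing chickens, and birds with a mutated ABCA1, which lies on chromosome Z in this species, almost lack HDL. Adipose tissue stores a large amount of cholesterol in its lipid droplets.

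The values are MAS5 signals, which carry no detection calls, so a low signal does not show that a transcript was present. The median of a probe set was 185.8 to 234.2 on 9 of the arrays and 276.2 on that of fat line 4, whose mean correlation with the other arrays was also the lowest (0.819, against 0.865 to 0.884). Of the fat cell genes, FABP4 and PLIN1 were among the brightest probe sets in both lines, which fits the tissue label. Scan day 3 held fat line 1 to 4 and lean line 3 and 5, day 2 held lean line 1 and 2, and day 1 held fat line 5 and lean line 4, whose wash log records a stop. Days 1 and 2 shared a scanner, and day 3 used another. The limma test of the lines called 0 probe sets at an adjusted p under 0.05 (0% of 38439), and SAM on all birds and all probe sets called 0. The study, which used only transcripts called present and left out a bird, did report differentially expressed genes by SAM. All those in its table of such genes had SAM q-values above 0.05, so its threshold was looser than that of the limma test here. At an unadjusted p under 0.05 there were 2835 probe sets (7.38%).

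LCAT had signals of 173.1, 88.0, 23.6, 71.2 and 43.5 in fat line 1 to 5. In lean line 1 to 5 they were 790.5, 478.7, 307.8, 514.7 and 281.2. Every fat line bird lay under every lean line bird, and the values on either side of the gap were those of fat line 1 (173.1) and lean line 5 (281.2), a ratio of 1.62. A gap of this kind with the fat line below was seen in 264 probe sets, 0.687% of those tested. Since LCAT was picked for it, nothing is read from that share.

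The log2 fold of LCAT was -2.78 (SE 0.50), so that the geometric mean of the lean line was 6.86 times that of the fat line. The spread among the fat line birds was wide, with a coefficient of variation of 72.2% against 43.0% in the lean line. The rank of LCAT among all probe sets of an array does not depend on how the arrays were scaled. It stood at percentile 13.0 to 48.1 in the fat line birds and 58.4 to 81.9 in the lean line birds. In all 5 fat line birds the signal was below the array's own median, and in all 5 lean line birds above it. These ranks come from the same signals by which LCAT was picked, so nothing is read from their separation. With signals under 100 set to 100, which removes differences among dim values, the log2 fold was -1.99, and without fat line 4, whose array stood apart, it was -2.81. The sign of both follows from the choice of LCAT.

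**Figure D1:**
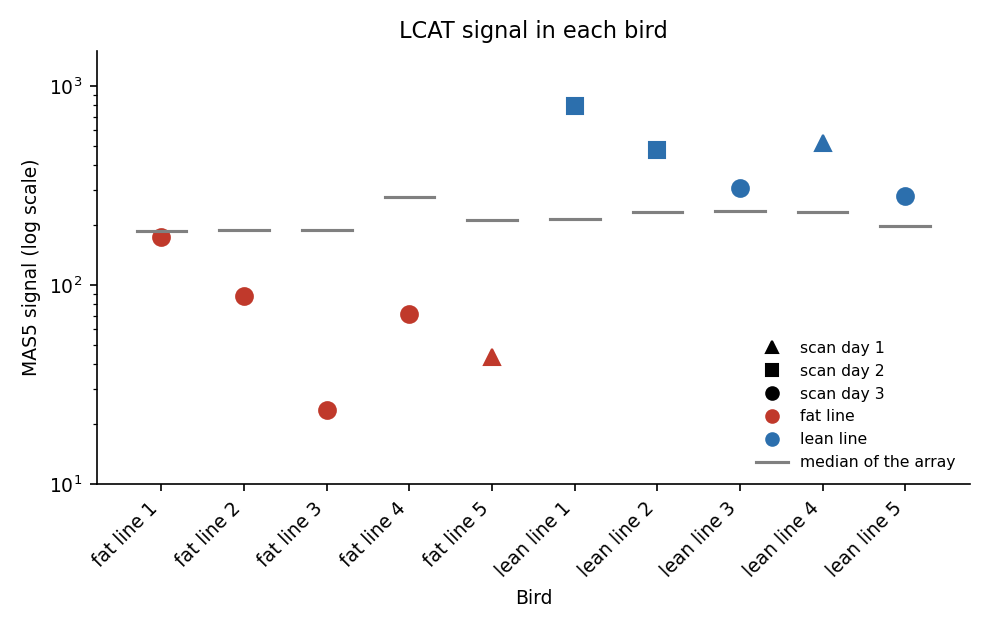
The LCAT signal of each bird is plotted on a log axis, with the lines in colour, the scan day as the shape of the point and the median of all probe sets of that array as a grey bar. The fat line birds lie at 23.6 to 173.1, under the bars, and the lean line birds at 281.2 to 790.5, above them.

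Within the lean line the signal of LCAT moved with scan day. It was 281.2 and 307.8 in the birds of day 3 and 478.7 to 790.5 in those of days 1 and 2. The scanner also changed between day 3 and the other days, so the day and the scanner cannot be told apart there. Days 1 and 3 held birds of both lines, and that the lines did not overlap within them follows from the choice of LCAT. On day 3, fat line birds had 23.6 to 173.1 and lean line birds 281.2 to 307.8, a log2 difference of -2.05. On day 1, fat line 5 had 43.5 and lean line 4 had 514.7. With scan day as a block the log2 fold was -2.46, and with wash run (arrays grouped by their hybridization times) as a block -2.47. The ratio of the 3' to the 5' GAPDH control, a sign of RNA integrity, was 1.358 to 1.439 in lean line 1, 2 and 4 and 0.916 and 0.982 in lean line 3 and 5. It was highest in fat line 5 (1.499), where LCAT had 43.5. The same ratio for the actin control was highest in lean line 1 (3.093) and lean line 2 (2.795), followed by fat line 5 (2.661) and lean line 4 (2.281). In lean line 3 and 5 it was 1.716 and 1.688. The summed signal of 9 skeletal muscle genes split the lean line in the same way. It was 61624 and 129059 in lean line 3 and 5 and 1921 to 9843 in lean line 1, 2 and 4. Without the 3 birds of highest skeletal muscle signal (lean line 3 and 5 and fat line 2), the log2 fold of LCAT was -3.28. That setting was chosen after the data were seen, and the sign follows from the choice of LCAT. The part of scan day, scanner, RNA integrity and muscle RNA in the spread of LCAT within the lean line was not tested.

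Since LCAT is made in mammals mostly by the liver, liver genes were set beside it. Of 17 measured liver genes, 16 had a negative log2 fold, with a median of -1.28, against -0.05 over all genes with a symbol. Their summed signal was 2335 to 3736 in the fat line and 2588 to 55262 in the lean line. Albumin (ALB), the main plasma protein of the liver, was 123 to 289.8 in the fat line, and it was 26025.9, 83.8, 250.3, 2067.8 and 12726.5 in lean line 1 to 5. The liver genes did not all follow one order of the birds. Lean line 2, with an LCAT signal of 478.7, had the lowest albumin signal of all birds and a summed liver signal inside the range of the fat line. In the same bird AHSG, a plasma protein of the liver, was 207 against 6.4 to 37.9 in the fat line. ITIH2 (211.8) and APOB (265.4) had their highest signals of all birds there, and FGA (28.8) and VTN (323) their lowest. FGB, FGG, APOH and PLG of that bird lay inside the range of the fat line. Its AHSG and ITIH2 signals were below the median of its array (232.3). APOB is given by the brightest of its 7 probe sets, and the paper counts apolipoprotein B among the genes not detected in this fat. Without lean line 1 and 5, the birds of highest liver signal, the log2 fold of LCAT was -2.72, a setting chosen after the data were seen. Its sign follows from the choice of LCAT. The summed signal of 6 smooth muscle genes also separated the lines, narrowly, at 6210 to 9566 in the fat line and 9604 to 53242 in the lean line. In lean line 1 to 5 it was 29021, 9604, 12761, 53242 and 11694. All 6 genes had a negative log2 fold, with a median of -1.18. An unadjusted limma p under 0.05 with a lower mean in the fat line was found in 5 of them, against 4.6% of all genes. Taken singly, 0 of the 6 genes were free of overlap. The part of liver and smooth muscle RNA in the LCAT signal was not tested.

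**Figure D2:**
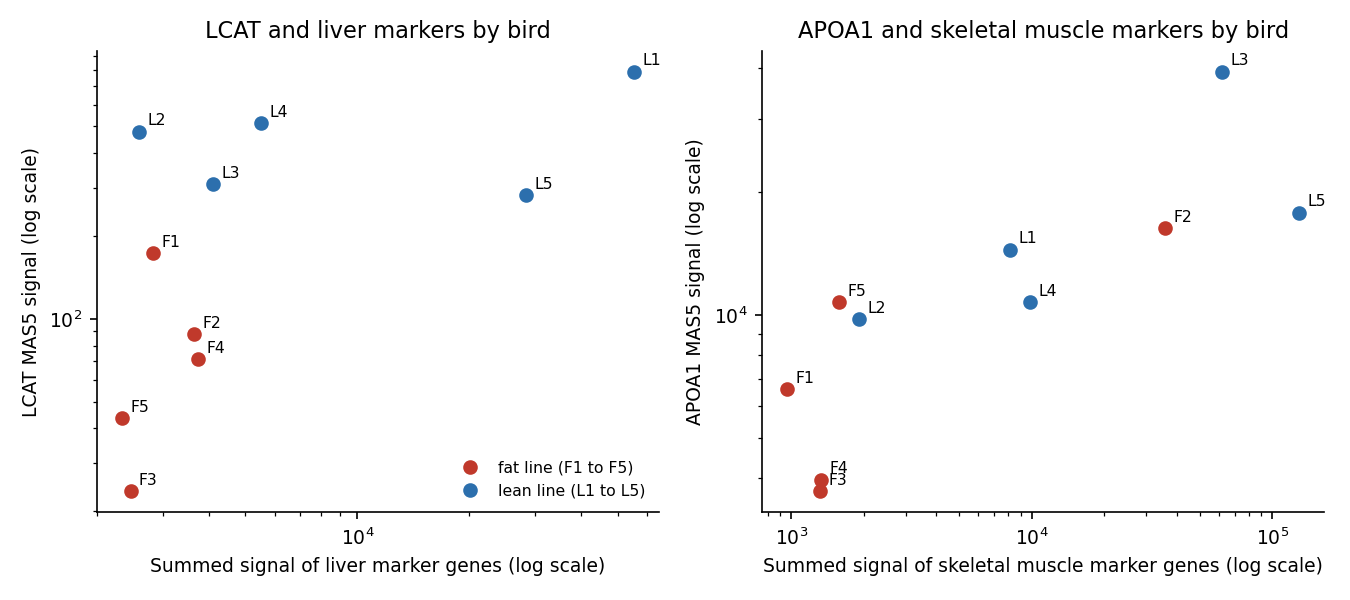
Each bird is a point, with the LCAT signal against the summed signal of 17 liver marker genes on the left and the signal of APOA1 probe set 1 against that of 9 skeletal muscle marker genes on the right, all on log axes. Lean line 2 (L2) has a liver signal of 2588 and an LCAT signal of 478.7, and APOA1 is highest in L3, L5 and F2, the birds with the highest muscle signals.

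The probe sets most like that of LCAT in their pattern over the birds were searched among 20756 probe sets with a symbol and a mean signal of at least 100, as a description. Over all 10 birds the highest Pearson r of log2 signals was 0.934, for the kinase SGK3, with 803.6 to 1112 in the fat line and 1401 to 1657 in the lean line. It was followed by SERINC2 (0.929), the coagulation factor subunit F13B (0.926), SMG6 (0.918) and the ribosomal protein RPLP1 (0.913). A gene whose signals separate the lines tends to score high in this list. After the mean of each line was subtracted, the gene most like LCAT was PROS1 (r = 0.964), which encodes the anticoagulant protein S, followed by SDHAF2 (0.910), EFCAB1 (0.881), CLIP2 (0.867) and again SMG6 (0.851). The signals of PROS1 overlapped between the lines, at 440.8 to 2280 in the fat line and 896.6 to 2251 in the lean line. Each list holds the highest of 20756 values of r over only 10 birds, so a high r in it is not evidence of a link. None of the other members was among the 5 genes of either list. Within lines, the Pearson r of LCAT with the other members ran from -0.75 (CETP probe set 3) to 0.44 (CETP probe set 2).

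LCAT lies on chromosome 11 in the RefSeq gene table (assembly GRCg7b, used here for the order of genes only), as does CETP, with 24 protein-coding genes between them. Of the 15 genes on each side of LCAT, 21 had a probe set, and 12 of them had a negative log2 fold, with a median of -0.04. The median over all genes with a symbol was -0.05, and the neighbours were chosen after the data were seen. None of the 21 had an unadjusted p under 0.05 with a lower mean in the fat line, where 4.6% of all genes did. With a higher mean in the fat line there were 2, TSNAXIP1 and RLTPR, against 3.33% of all genes. Nothing is read from these small counts. TSNAXIP1 was 53.1 to 151.7 in the fat line and 9 to 37.9 in the lean line, all below the medians of the arrays. Its lines did not overlap, as in 0.705% of all probe sets with the fat line above. The log2 fold was 2.26 (limma: SE 0.60, adjusted p = 0.345). RLTPR had a log2 fold of 1.13 (limma: SE 0.41, adjusted p = 0.563). The nearest genes with a probe set on either side of LCAT were KIAA0895L (log2 fold 0.59, SE 0.56) and LOC415661 (-0.66, SE 0.41). The next ones outward were ELMO3 (-0.30, SE 0.65) and LOC769668 (-1.23, SE 0.60). None of these had an unadjusted p under 0.05.

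Of the 12 probe sets of the other 6 genes, 0 passed limma's test, and the lowest adjusted p was 0.527. An unadjusted p under 0.05 was found in 3 of the 12, all with a lower mean in the fat line, where 3.99% of all probe sets were on that side at that level. They were both probe sets of APOA1, which followed each other closely (Pearson r of 0.96), and 1 of CETP. Probe sets of the same gene are not independent, so 3 of the 12 is not a count of genes. The count depended on the birds and the setting. It was 1 (APOA1 probe set 1) without the 3 birds of highest skeletal muscle signal and 2 without the 2 birds of highest liver signal, without fat line 4 or with signals under 100 set to 100. With wash run as a block it was 4. A negative log2 fold was found in 10 of the 12, again with several probe sets for some genes, against 55.7% of all probe sets. In 0 of the 12 were the lines free of overlap. Single probe sets were also compared by a two-sided exact permutation test that relabelled the birds in every possible way. Its smallest p with 5 birds against 5 is 0.0079, and these 12 p-values are not adjusted.

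**Figure D3:**
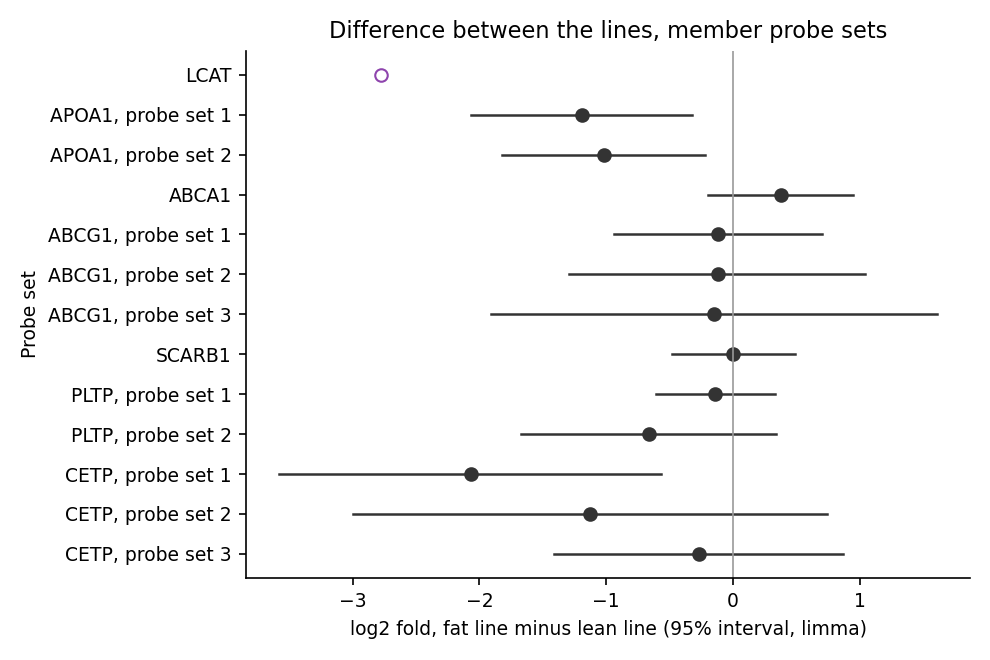
The log2 fold, fat line minus lean line, is plotted for the 13 member probe sets with its 95% interval from limma, and LCAT, picked for this difference, is drawn as an open point with no interval. The intervals of both APOA1 probe sets and of CETP probe set 1 lie below 0 before adjustment, and those of the other 9 include 0.

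APOA1, the main protein of HDL, had probe sets whose mean signals stood at percentile 99.3 and 98.9 of the array. The brighter had signals of 6582.5, 16322.4, 3712.9, 3969.2 and 10741.5 in fat line 1 to 5, and 14445.3, 9772.2, 39215.3, 10767.5 and 17783.2 in lean line 1 to 5. Lean line 3 stood highest, fat line 3 and 4 stood lowest, and the lines overlapped. The means were 8266 ± 5317 in fat line birds and 18397 ± 12062 in lean line birds (SD, n = 5 each). The log2 fold was -1.19 (limma: SE 0.41, adjusted p = 0.531, exact permutation p = 0.0794). The other probe set had a log2 fold of -1.02 (limma: SE 0.38, adjusted p = 0.566, exact permutation p = 0.0873). Both ranked the birds much alike (Pearson r of 0.96 over the 10 birds, as a description). Without fat line 4 the log2 folds were -0.99 and -0.81.

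Chicken APOA1 is transcribed in many tissues, skeletal muscle among them. The 9 skeletal muscle genes measured, such as skeletal alpha-actin (ACTA1) and the troponins, summed to 129059 in the fifth bird of the lean line, to 61624 in the third and to 35915 in fat line 2. In the other 7 birds they summed to 964 to 9843. The same 3 birds had the highest signals of the brighter APOA1 probe set. With the other probe set, fat line 5 (8671.1) stood above fat line 2 (8309.4). Of the 9 genes all had a negative log2 fold, with a median of -2.31. Without those 3 birds, a setting chosen after the data were seen, the log2 fold of APOA1 was -1.02 (limma: SE 0.31, adjusted p = 0.506) with the brighter probe set and -0.61 (limma: SE 0.30, adjusted p = 0.734) with the other. Without lean line 3 alone it was -0.87 and -0.70. On scan day 3, where 4 fat line and 2 lean line birds remain, it was -2.07 (limma adjusted p = 0.362) and -2.06 (0.179), but both lean line birds of that day are among the 3 with high muscle signals. On day 1, fat line 5 had 10741.5 and lean line 4 had 10767.5. The part of muscle RNA in the APOA1 signal was not tested further.

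ABCA1, which loads lipid onto APOA1, had signals of 861.6, 1042.9, 738.2, 1349.2 and 710.5 in fat line 1 to 5, and 379.8, 584.4, 809.8, 1114.3 and 858.7 in lean line 1 to 5. The highest birds of the lines were fat line 4 and lean line 4, and the lowest were lean line 1 and 2. The mean was 940.5 ± 263.4 in fat line birds and 749.4 ± 279.5 in lean line birds (SD, n = 5 each), or a log2 fold of 0.38 (limma: SE 0.27, adjusted p = 0.804, exact permutation p = 0.278). ABCA1 and SCARB1 were the members without a negative log2 fold. Lean line 1 and 2 were the birds of scan day 2, which held no fat line bird. With scan day as a block the log2 fold of ABCA1 was -0.02, with wash run as a block 0.03, and without fat line 4 it was 0.24.

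ABCG1 exports cholesterol to mature HDL. Its first and second probe sets had mean signals of 224.2 ± 100.9 (SD, n = 10) and 210.4 ± 116.6 (SD, n = 10), close to the middle of the array, and the third had 28.75 ± 21.59 (SD, n = 10), at percentile 5.9. The first was 214.7 ± 103.8 in fat line birds and 233.7 ± 109 in lean line birds (SD, n = 5 each), or a log2 fold of -0.12 (SE 0.39, 95% interval -0.94 to 0.70, limma adjusted p = 0.971). As for ABCA1, its highest birds were fat line 4 (389.1) and lean line 4 (408.3), which are the array that stood apart and the one with the stopped wash. Within lines its Pearson r with ABCA1 was 0.70 over 10 birds, the highest of the members with ABCA1, and those of the other ABCG1 probe sets were 0.02 and 0.20. The 3 probe sets followed each other to different degrees, with a Pearson r over the 10 birds of 0.42 for probe sets 1 and 2, 0.27 for 1 and 3 and 0.67 for 2 and 3, as a description. The other probe sets had log2 folds of -0.12 (95% interval -1.29 to 1.04) and -0.15 (-1.91 to 1.61), so that a difference of 1 log2 unit in either direction lies inside both intervals.

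SCARB1, the receptor that takes up cholesteryl ester from HDL, was the steadiest member between the lines, at 459.9 ± 84.3 in fat line birds and 464.1 ± 111.3 in lean line birds (SD, n = 5 each). Its signals were 374.3 to 590.6 in the fat line and 324.6 to 586.7 in the lean line. The log2 fold was 0.00 (SE 0.23, exact permutation p = 0.976), with a 95% interval of -0.48 to 0.49. Its highest signal was 1.82 times its lowest, against 33.5 times for LCAT.

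**Figure D4:**
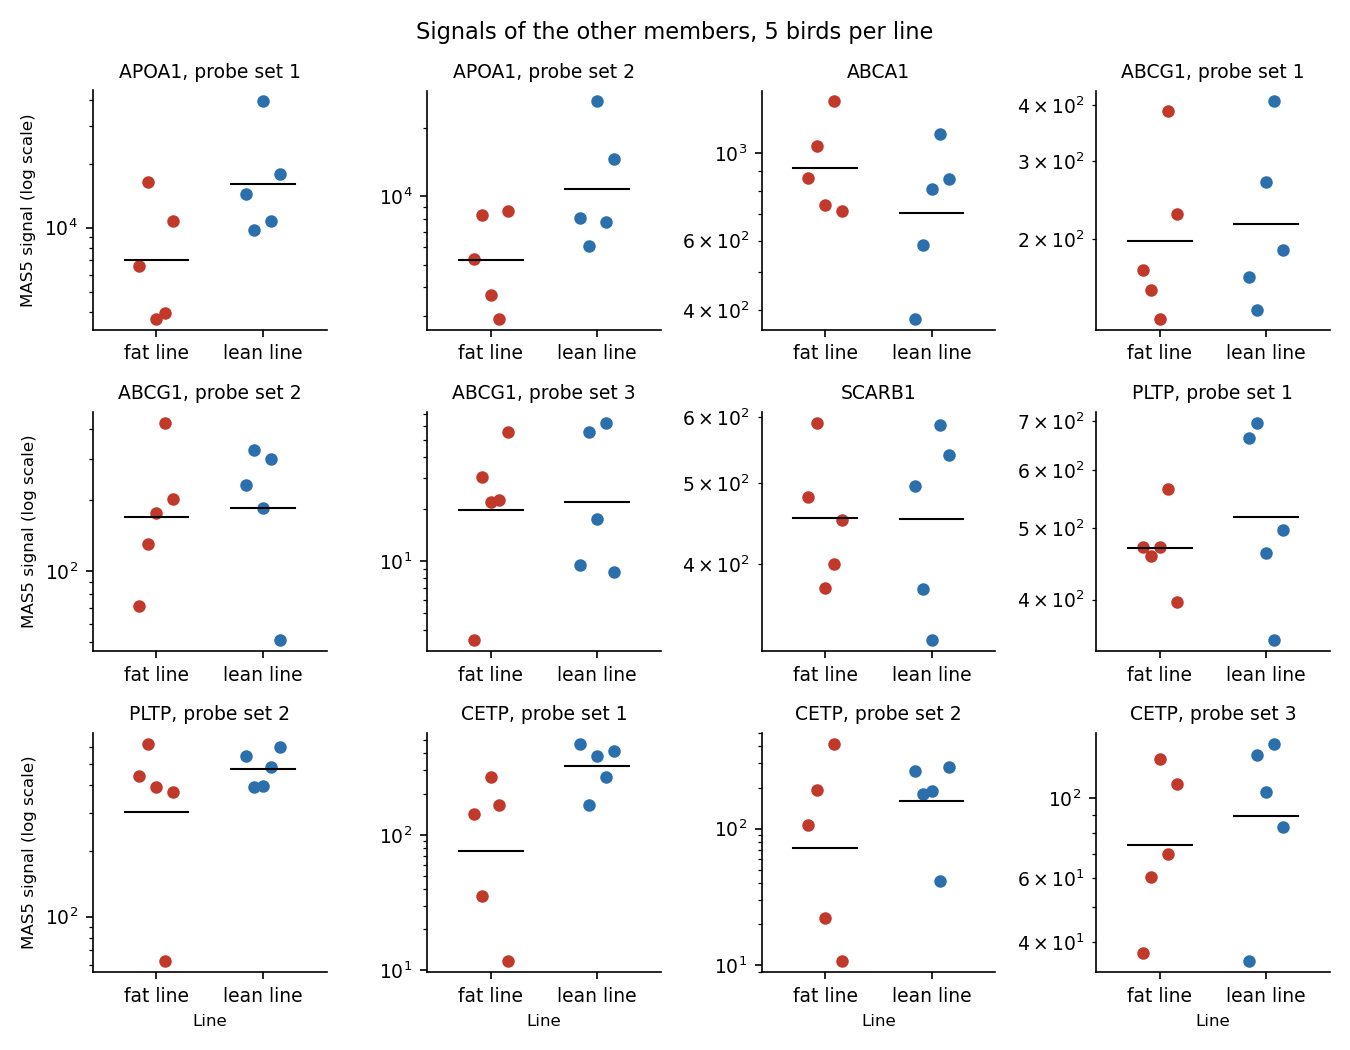
The signals of the 12 probe sets of the other 6 genes are plotted on log axes, 1 panel per probe set, with each bird as a point and the geometric mean of its line as a bar. The lines overlap in every panel, and a single low point stands out in the fat line of PLTP probe set 2 (62.3 in fat line 4) and in the lean line of CETP probe set 2 (41.6 in lean line 4).

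PLTP, which moves phospholipids between lipoproteins, was measured by 2 probe sets. The first was 472.6 ± 60.25 in fat line birds and 534.7 ± 143.9 in lean line birds (SD, n = 5 each), with a log2 fold of -0.14 (limma: SE 0.22, adjusted p = 0.927, exact permutation p = 0.5). The second had 440.6, 620.7, 394.5, 62.3 and 372.1 in fat line 1 to 5, and 392.7 to 599.3 in the lean line. Fat line 4 alone was low, and in the same bird the first probe set had 564.8, its highest signal in the fat line. The log2 fold of the second was -0.66 (limma: SE 0.47, adjusted p = 0.803), and without fat line 4 it was -0.09 (SE 0.22). With wash run as a block it was -1.02 (limma: SE 0.40, adjusted p = 0.583), with an unadjusted p of 0.0283. In the other 4 birds of the fat line the second had 372.1 to 620.7, which overlaps the lean line.

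CETP, which trades cholesteryl ester for triglyceride between lipoproteins, came next to LCAT in the size of its difference. Its brightest probe set had signals of 141.3, 35.2, 265.9, 167.2 and 11.6 in fat line 1 to 5, and 469.5, 167.3, 384.5, 268.6 and 417.4 in lean line 1 to 5. All 5 fat line birds lay under the median of the lean line, but fat line 3 stood above lean line 2, so the lines overlapped. The means were 124.2 ± 103.5 and 341.5 ± 122.1 (SD, n = 5 each), and the log2 fold was -2.07 (limma: SE 0.71, adjusted p = 0.527, exact permutation p = 0.0159). Without fat line 5, the lowest bird, it was -1.39, and with signals under 100 set to 100 it was -1.15. On scan day 3 alone it was -1.72, and without fat line 4 it was -2.36. Without the 3 birds of highest muscle signal it was -1.58 (SE 0.89), and without the 2 of highest liver signal -1.76 (SE 0.88), both with an unadjusted p above 0.05.

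The other CETP probe sets had smaller differences. The second had a log2 fold of -1.13 (limma: SE 0.88, adjusted p = 0.825, exact permutation p = 0.302), with 10.7 to 417.3 in the fat line and 41.6 to 281.5 in the lean line, and without fat line 5 it was -0.44. The third had -0.27 (limma: SE 0.54, adjusted p = 0.947), and it stood at percentile 25.3 with 89.99 ± 38.62 (SD, n = 10). The first and the second ranked the birds loosely alike (Pearson r of 0.49 over the 10 birds, as a description), and the third did not follow them (-0.07 and -0.48). Fat line 5 had 11.6 and 10.7 with the first and the second and 109.1 with the third. Several of these signals lie near the lower end of the signal range.

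Genes that act around HDL in plasma and at the cell surface were taken as a list of 22, of which 17 were measured, each by its brightest probe set. Of these, 0 passed limma's test, 7 had a negative log2 fold (56.1% of all genes did), and the median was 0.09. An unadjusted p under 0.05 with a higher mean in the fat line was found in 3, where 3.33% of all genes and 3.38% of all probe sets were on that side, and with a lower mean in 0. The scavenger receptor and fatty acid transporter CD36 had signals of 35622.9, 33802.8, 31209.1, 26935.0 and 32948.7 in fat line 1 to 5, and 20873.4 to 26310.7 in the lean line. Its lines did not overlap, as in 0.705% of all probe sets with the fat line above. The log2 fold was 0.41 (limma: SE 0.14, adjusted p = 0.518). CD36 had 2 probe sets, and the values of the dimmer are not given here. The other genes were lipoprotein lipase (LPL, log2 fold 0.31 with SE 0.14 and a limma adjusted p of 0.666) and a paraoxonase. The paraoxonase was listed as PON2 and is annotated as PON1 with PON2 as a synonym, so which of them it is was not settled. The paraoxonase was 6520 ± 1392 in fat line birds and 4362 ± 2139 in lean line birds (SD, n = 5 each), or a log2 fold of 0.71 (limma: SE 0.30, adjusted p = 0.643).

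The apolipoproteins of this list had log2 folds of either sign, none with an unadjusted p under 0.05. APOA4 was 42.3 to 142.6 in the fat line and 83.4 to 144.9 in 4 birds of the lean line, while lean line 1 had 1573.6 (log2 fold -1.46 with SE 0.72 and a limma adjusted p of 0.704). APOH had a log2 fold of -1.29 (SE 0.73), APOB -0.98 (SE 0.48), APOD 0.11 (SE 0.19) and APOA5 0.58 (SE 0.75). Hepatic lipase (LIPC) had -0.97 (SE 0.64), also with an unadjusted p above 0.05. APOA4, APOH and APOB are also in the liver list, whose summed signal ran up to 55262 in lean line 1. The HDL phospholipase of endothelium, LIPG, had a log2 fold of 0.00 (SE 0.33), and the very low density lipoprotein receptor (VLDLR) 0.09 (SE 0.14).

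**Figure D5:**
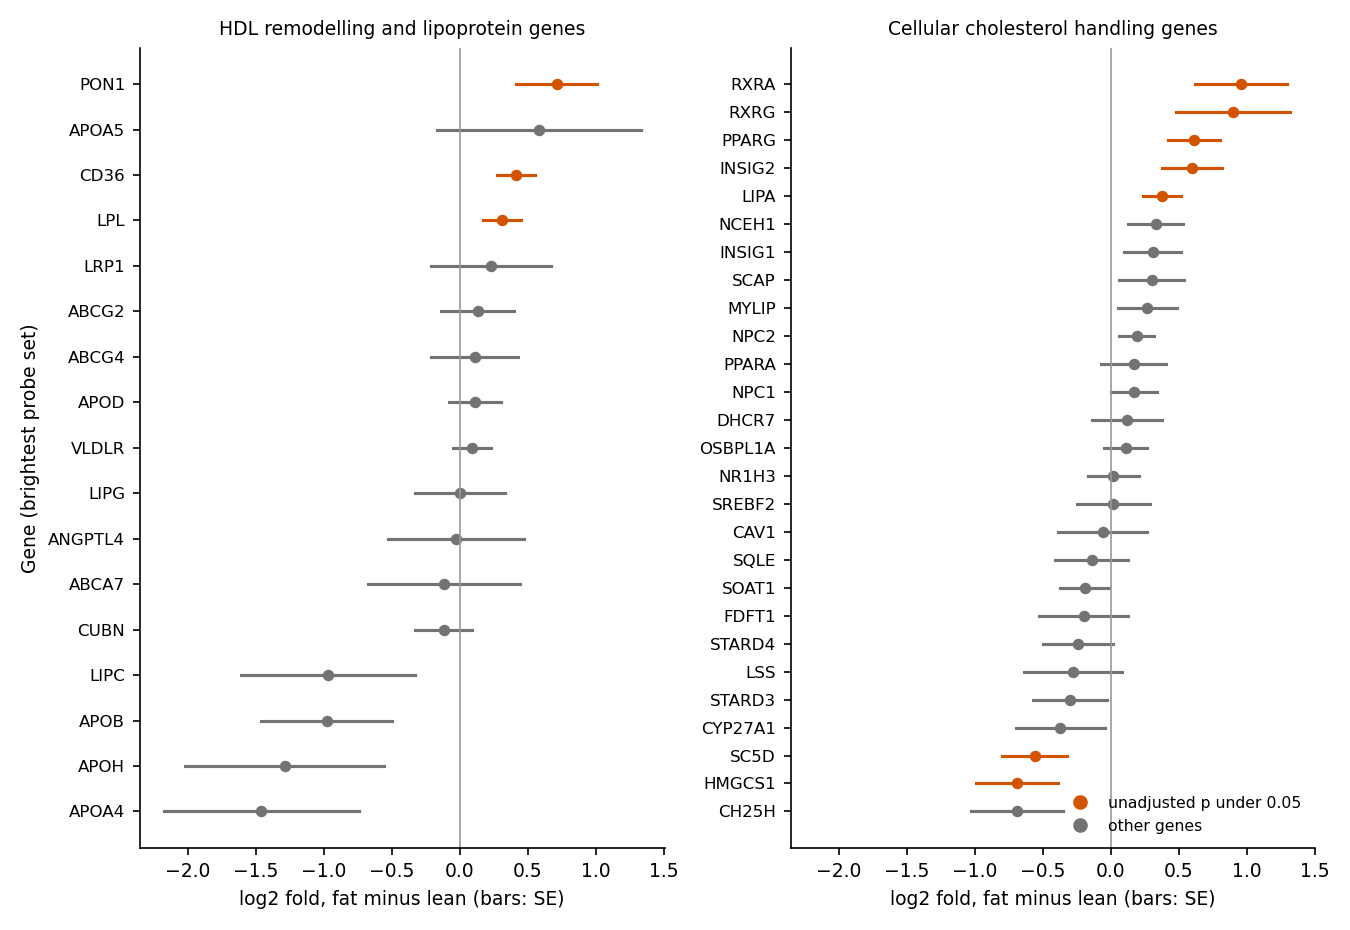
Points are log2 folds, fat line minus lean line, with bars of 1 SE, for the 17 measured genes around HDL on the left and the 27 measured genes of cell cholesterol on the right. Genes with an unadjusted p under 0.05 are in orange, 3 on the left and 7 on the right, and none passed adjustment over all probe sets.

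Genes that handle cholesterol inside the cell were a second list of 32, of which 27 were measured, each by its brightest probe set. Where a gene had several, such as RXRA with 3 and LIPA with 5, the others are not given here. Of these, 0 passed limma's test, 11 had a negative log2 fold, and the median was 0.11. An unadjusted p under 0.05 was found with a higher mean in the fat line in 5 genes, against 3.33% of all genes, and with a lower mean in 2, against 4.6%. The liver X receptor NR1H3, the sterol sensor that turns on ABCA1 and ABCG1, was 3055 ± 807.4 in fat line birds and 2943 ± 486.5 in lean line birds (SD, n = 5 each), or a log2 fold of 0.02 (SE 0.19). Among its partners, the retinoid X receptor RXRA was 459.1 ± 123.7 in fat line birds against 252.7 ± 119.7 in lean line birds (SD, n = 5 each), or a log2 fold of 0.96 (limma: SE 0.34, adjusted p = 0.546). RXRG had 0.90 (limma: SE 0.42, adjusted p = 0.677). PPARG, the master regulator of fat cells, which acts with the same partners, was 5149 ± 1106 in fat line birds against 3389 ± 785.2 in lean line birds (SD, n = 5 each), or a log2 fold of 0.61 (limma: SE 0.19, adjusted p = 0.458).

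Lysosomal acid lipase (LIPA), which frees cholesterol from its esters, was 3757 ± 486.2 in fat line birds and 2877 ± 317.4 in lean line birds (SD, n = 5 each), or a log2 fold of 0.38 (limma: SE 0.14, adjusted p = 0.558). INSIG2, which holds back the activation of sterol synthesis, had 0.60 (limma: SE 0.22, adjusted p = 0.558). The 2 genes with a lower mean in the fat line are both enzymes of cholesterol synthesis. HMGCS1 was 444.8 ± 156.1 in fat line birds against 720.8 ± 307.4 in lean line birds (SD, n = 5 each), or a log2 fold of -0.69 (limma: SE 0.30, adjusted p = 0.655), and SC5D had -0.56 (limma: SE 0.24, adjusted p = 0.649). SQLE, LSS and FDFT1 of the same route had -0.14 to -0.28, and DHCR7 had 0.12, all with an unadjusted p above 0.05. SOAT1, which esterifies cholesterol inside cells, had -0.19 (SE 0.18).

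Macrophages carry much ABCA1 and ABCG1. The 14 macrophage genes measured had a summed signal of 27308 to 31752 in the fat line and 23417 to 57257 in the lean line, where lean line 3 was highest. ABCA1 in that bird was 809.8, inside the range of both lines. The summed signal of 10 fat cell genes was 178838 to 220794 in the fat line and 159679 to 198338 in the lean line. The part of these cells in the ABCA1 and ABCG1 signals was not tested.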

How the data were processed

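RNA from abdominal fat of 10 birds was hybridized to Affymetrix chicken arrays, each bird on its own array. The labels name a phenol-based extraction (Trizol) and the paper's methods a column kit. The authors made the deposited signal values with MAS5, per the labels, and scaled each array to a 2% trimmed mean of 500 on a linear scale, which was checked on the values. The number of arrays limits the precision. The scan files that came with the arrays gave scan day, scanner and the stopped wash. Wash run was derived from the hybridization times in them, a new run starting after a gap of over 1 hour. The 38535 probe sets included 96 controls, which were not used. Those tested (38439) carried 1 symbol in 27168 cases, several in 177 and none in 11094.

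The fit of line on the log2 scale used limma 3.58.1 under R 4.3.3 (eBayes with an intensity trend, two-sided, Benjamini-Hochberg over all probe sets, threshold 0.05). SAM, which the study's methods name, was run with delta 0.8 and 100 permutations on all birds and all probe sets. The study used only transcripts called present and left out a bird. The sample titles do not give the paper's bird numbers. The LPL signal printed in the paper for the bird left out is that of fat line 2 (25855), while the array that stood apart here was that of fat line 4. Which array belongs to the bird left out was not settled. Exact permutation tests used Python 3.11.15 with numpy 2.4.6 and pandas 2.3.3. Scripts were tested on simulated data. The members and lists were chosen with earlier results of these data known. Genes named are all members, list genes with an unadjusted p under 0.05 or set beside a member, and the 5 genes most like LCAT in pattern. The alternatives were other scalings, added constants and floors, a brightness filter, an untrended prior, scan day, wash run or replicate number as a block, scan day 3 alone, SAM and leaving out each bird.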

Additional observations from a re-analysis of the deposited data

Results flagged for a closer look

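Dixon's test on log2 signals was applied to 26 groups of 5 birds (13 probe sets in 2 lines), where chance flags about 1 group in 20. It found 2 birds that stood apart. With PLTP probe set 2, fat line 4 had 62.3 and the next lowest bird of its line 372.1, a gap of 0.777 of the range. With CETP probe set 2, lean line 4 had 41.6 and the next lowest 179.5, a gap of 0.765 of the range. The other probe sets of these genes gave no flag for these birds.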

How the results depend on the processing

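The number of probe sets called over the array was 0 with all birds (2835 at an unadjusted p under 0.05), 0 to 2 when each bird was left out in turn, and 0 by SAM. It was 2 with quantile normalization without fat line 4, 3 without the 3 birds of highest skeletal muscle signal and 1 without the 2 birds of highest liver signal, settings chosen after the data were seen. The number of called probe sets of the 6 genes beside LCAT was 0 in every setting, 0 to 0 over the birds left out. Of the probe sets at an unadjusted p under 0.05, 45.9% were higher in the fat line, against 56.5% with quantile normalization, 62.0% with arrays scaled to the same median and 36.3% without fat line 4 (4341 probe sets).

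The log2 fold of LCAT was -3.13 to -2.41 over the birds left out and -3.28 to -1.99 over the other settings. Since LCAT was picked for being low in every fat line bird, leaving birds out could not turn its sign, and nothing is read from that. No member probe set passed in any of 271 refits of the 12, and 244 of these kept the sign. The signs that turned belonged to folds of 0.38 or less in size, and the cause was not tested. With scan day as a block, ABCA1 had -0.02, SCARB1 -0.02, PLTP probe set 1 0.07 and ABCG1 probe sets 2 and 3 0.38 and 0.17. With wash run as a block, SCARB1 had -0.10, PLTP probe set 1 0.09 and ABCG1 probe sets 2 and 3 0.70 and 0.32. On scan day 3 alone, PLTP probe set 1 had 0.03 and ABCG1 probe sets 2 and 3 0.74 and 0.30. Without the birds of highest muscle signal, ABCG1 probe set 1 had 0.01 and SCARB1 -0.17, and with quantile normalization without fat line 4, ABCG1 probe set 3 had 0.25. Over the birds left out, the folds of ABCG1 ran from -0.37 to 0.11, -0.59 to 0.19 and -0.53 to 0.47, and that of SCARB1 from -0.12 to 0.10.

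No pairing of the birds by the replicate numbers of the labels was seen. Same-numbered birds of the lines had deviations that correlated at -0.136 to 0.063. The best match of each fat line bird, always with another number, reached 0.081 to 0.180. Values this low cannot show that the birds were unpaired. With the replicate block 0 probe sets were called (2591 at an unadjusted p under 0.05), and 0 of the member probe sets. The brightness filter left out LCAT and 5 of the other 12. Low signals limit these folds, as setting signals under 100 to 100 moved LCAT from -2.78 to -1.99 and CETP probe set 1 from -2.07 to -1.15.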
